A study of Caenorhabditis elegans with 2 samples.

Results

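Divergent promoter peaks were the sites of tagged DMD-6 that lay between, or close to, the start sites of protein-coding genes running in opposite directions. A peak belonged to them when its summit, on chromosome II, III, IV or V, fell in the promoter window of at least 2 protein-coding genes on opposite strands, a window that reached 1000 bp upstream and 200 bp downstream of a start site (Ensembl gene models, assembly WBcel235, called ce11 in the files). By this rule 482 of the 7338 summits of the series (6.57%) were members, out of 4720 summits on the 4 chromosomes. They lay in 480 peak intervals, named 444 different pairs of nearest opposed genes and touched 917 genes. The rule used position and annotation, and neither the peak signal nor the replicates. For comparison, 2030 summits on the same chromosomes had exactly 1 protein-coding gene in the same window and are called single-gene promoter peaks.

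The study mapped a GFP-tagged DMD-6 protein in Caenorhabditis elegans by ChIP-seq, in which chromatin is sheared, precipitated with an antibody and sequenced. The only group was strain RJP5356, whose own dmd-6 gene on chromosome IV carries the CRISPR insertion rp168 (GFP, AID, TEV and 3xFLAG). Whole L4 larvae of 48 hours, synchronised by bleaching and starvation in L1, were taken as 2 biological replicates with an anti-GFP precipitation, and the antibody field of the labels names dmd-6. Both libraries carry the tag, sex was not collected, and the control experiment that the labels name was not used here. The tag includes an auxin-inducible degron (AID), and the labels name no auxin treatment. Because the larvae were taken whole, binding in fewer cells and less binding per cell cannot be told apart in any signal given here.

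DM-domain proteins, the family of fly Doublesex and worm MAB-3, bind DNA through a zinc-containing module that reads the minor groove, and are best known for their part in sexual development. Divergent promoters are stretches between start sites that point away from each other, so that a single stretch of regulatory DNA can serve a gene on each side. In worms many transcripts are trans-spliced, which removes their original 5′ end, and an annotated start can therefore lie downstream of where transcription began. A peak in such a stretch cannot be assigned to either gene from its position alone.

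The sequences at the summits of the 3 strongest divergent promoter peaks are shown first because they differ in composition and in the words they hold. Each window runs from 50 bp left of the summit to 50 bp right of it, on the plus strand of WBcel235 from the RefSeq genome, read 5′ to 3′. Capitals mark any of 8 short words, each searched on both strands. They were the core that DM-domain proteins prefer (ACAATGT), the GATA factor site (TGATAA), an E-box (CACGTG), a GA repeat (GAGAGA), the AP-1 site (TGACTCA), the E2F site (TTTCGCG), and the words GTCACGT, which holds part of an E-box, and TTGTATA. In the first window the run TTATCATCTCTC joins TGATAA and GAGAGA, both read on the minus strand.
H12C20.7/nhr-68 (chrV:11572993-11573093): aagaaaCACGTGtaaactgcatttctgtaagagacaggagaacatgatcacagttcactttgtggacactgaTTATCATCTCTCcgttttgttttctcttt
nhl-2/tag-340 (chrIII:4899862-4899962): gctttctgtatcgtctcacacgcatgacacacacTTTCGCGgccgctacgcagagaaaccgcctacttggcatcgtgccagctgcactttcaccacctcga
K01G5.10/tasp-1 (chrIII:10759199-10759299): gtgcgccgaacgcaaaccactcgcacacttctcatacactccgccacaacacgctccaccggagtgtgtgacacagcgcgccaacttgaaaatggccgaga
The window of H12C20.7/nhr-68 held the E-box, the GATA word and the GA repeat, that of nhl-2/tag-340 the E2F word, and that of K01G5.10/tasp-1 none of the 8. None of the 3 held ACAATGT.

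The DM-domain core was present in 9 of the 482 windows (1.87%, 95% exact binomial interval 0.857 to 3.51%). The 5 strongest peaks with it are shown, with the word alone in capitals, to show where it stood and what surrounded it.
F08F3.8/acl-6 (chrV:5433199-5433299): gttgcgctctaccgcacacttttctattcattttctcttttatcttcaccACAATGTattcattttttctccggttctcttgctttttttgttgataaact
mig-5/cct-1 (chrII:8185158-8185258): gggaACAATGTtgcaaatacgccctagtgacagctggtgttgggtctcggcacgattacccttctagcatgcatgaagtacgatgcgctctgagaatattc
Y73C8B.3/Y73C8B.9 (chrV:3193273-3193373): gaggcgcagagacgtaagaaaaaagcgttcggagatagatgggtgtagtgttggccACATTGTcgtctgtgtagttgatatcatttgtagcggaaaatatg
nas-29/F58A6.1 (chrII:5142273-5142373): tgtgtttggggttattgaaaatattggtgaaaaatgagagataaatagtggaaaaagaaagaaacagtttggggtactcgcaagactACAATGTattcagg
piit-1/sas-5 (chrV:11610593-11610693): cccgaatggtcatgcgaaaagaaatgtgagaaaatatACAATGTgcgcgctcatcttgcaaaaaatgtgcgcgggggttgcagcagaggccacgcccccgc
The word began at the summit base itself in F08F3.8/acl-6, 6 bp to the right of it in Y73C8B.3/Y73C8B.9 (on the minus strand, hence ACATTGT), and 37 bp to the right in nas-29/F58A6.1. In mig-5/cct-1 and piit-1/sas-5 its first base had the positions -46 and -13 relative to the summit. acl-6 encodes a glycerol-phosphate acyltransferase, mig-5 a Dishevelled protein of Wnt signalling, cct-1 a chaperonin subunit, nas-29 an astacin protease and sas-5 a centriole duplication protein. The first 3 of these peaks overlapped peaks of both replicates, with peak signals of 377.6, 362.3 and 287.0, and the other 2, at 181.9 and 150.7, overlapped a thresholded peak of replicate 1 alone. A word match is a description of the letters and not evidence of binding there.

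The other windows shown carry the GATA word and the E2F word, the commonest of the 8 words and one with a higher share than in single-gene promoter peaks. They were chosen after their values were seen, and capitals mark the named word only. The GATA word stands in these:
Y54G2A.28/vrp-1 (chrIV:3012519-3012619): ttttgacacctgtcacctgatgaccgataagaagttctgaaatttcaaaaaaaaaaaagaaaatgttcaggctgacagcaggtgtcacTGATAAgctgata
fbxa-108/dgat-2 (chrV:17659387-17659487): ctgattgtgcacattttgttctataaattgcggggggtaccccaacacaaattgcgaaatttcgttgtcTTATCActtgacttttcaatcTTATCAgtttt
The E2F word stands in this one, as CGCGAAA:
dnj-19/nhr-47 (chrV:5505184-5505284): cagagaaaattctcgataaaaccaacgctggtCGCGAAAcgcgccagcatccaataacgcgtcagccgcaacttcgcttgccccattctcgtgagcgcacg
dgat-2 encodes an enzyme of triglyceride synthesis, fbxa-108 an F-box protein, dnj-19 a DnaJ co-chaperone and nhr-47 a nuclear hormone receptor. The peaks had signals of 596.8, 586.8 and 435.6, and each overlapped peaks of both replicates.

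Divergent promoter peaks overlapped peaks of the single replicates more often than the list as a whole did, and their signals were somewhat higher. That list was called on both replicates together, per the deposited descriptions, so the overlap is not an independent recovery. The peak signal is a value that the authors give to every peak, and lists differ in its scale. Of the 482 members, 316 (65.6%, interval 61.1 to 69.8%) overlapped a thresholded peak of each replicate by at least 1 bp. The share was 57.4% in single-gene promoter peaks (1165 of 2030, interval 55.2 to 59.6%) and 58.5% over all 7338 peaks. Another 124 members overlapped a peak of replicate 1 alone, 13 of replicate 2 alone and 29 of neither. The thresholded list of replicate 1 held 6533 peaks and that of replicate 2 held 4653, and the depth in reads behind them is unknown. In the longer ranked lists, kept before the reproducibility threshold, 465 members (96.5%) overlapped an entry of each replicate, against 96.0% of single-gene promoter peaks. Peaks are not replicates, so the intervals cover the counting of peaks only, and the differences were not tested.

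The median peak signal was 162.9 in divergent promoter peaks (quartiles 107.2 and 260.6, lowest 4.4, highest 1466.5) and 142.6 in single-gene promoter peaks (quartiles 95.1 and 230.6). Intervals for the medians ran from 149 to 175 and from 137 to 148, and the whole list had a median of 140.9. The fifth of the list with the highest signal held 117 members (24.3%, interval 20.5 to 28.4%) and 19.6% of the single-gene promoter peaks. Among peaks of like signal the shares found in both replicates were closer. They were 100% for members and 99.5% for single-gene peaks in the fifth with the highest signal, 94.7% and 93.5% in the next, 61.5% and 59.9% in the middle one, 22.5% and 18.5% in the one after it and 12.1% and 11.3% in the weakest. The fifth with the lowest signal held 58 members and 382 single-gene promoter peaks (18.8%). Of the 100 strongest peaks of the whole list, 11 were members and 23 were single-gene promoter peaks, sets that made up 6.57% and 27.7% of the list. Another 44 lay on the same 4 chromosomes outside the promoter windows of protein-coding genes, a set that made up 29.5% of the list.

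The order of the members was largely kept between the replicates. Over the 316 members found in both, the Spearman correlation of their signals across peaks was 0.853, and it was 0.803 over the 1165 single-gene promoter peaks. These points share 2 libraries, and peaks of different strength are not independent samples. The median signal was 136.7 in replicate 1 and 96.6 in replicate 2, and the value was higher in replicate 1 for 286 members (90.5%), on scales that are each list's own. The summits of the overlapping peaks in both replicates lay within 50 bp of the member's summit in 300 of the 316 members (94.9%), against 88.8% of single-gene promoter peaks. Members found in both had a median signal of 233.9, those in replicate 1 alone 102.4, those in replicate 2 alone 103.2 and those in neither 79.5.

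**Figure D1:**
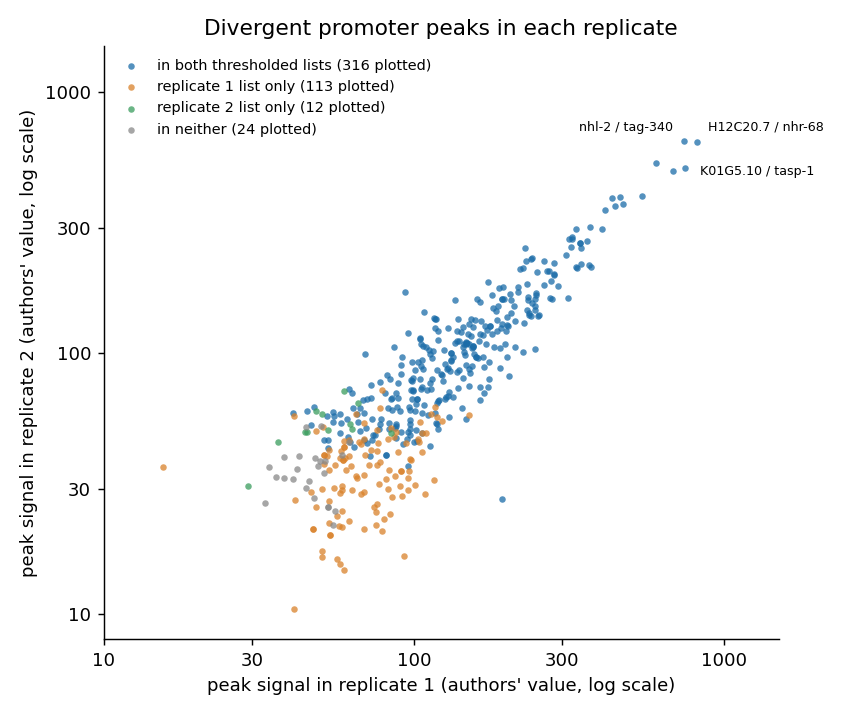
Peak signal of the divergent promoter peaks that overlap an entry in the ranked or thresholded list of both replicates, replicate 1 on the x axis and replicate 2 on the y axis, both on a log scale in the authors' units; each point is a peak and its colour says in which thresholded lists it was found. The 3 strongest pairs are named at the upper right, and the peaks found in replicate 1 alone or in neither lie at the lower left.

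Overlap credits some weak summits with a neighbour's peak. A total of 17 members overlapped a stronger peak of the same list, and 7 of them counted as found in both. All 15 members with a signal under 30 were of this kind, and 5 of those counted as found in both. One example, chosen after its values were seen, was the second summit of sec-61.A/rps-18. Its signal was 27.6 beside a neighbour of 262.2, and both took the same replicate values of 154.8 and 106.4. With the stricter rule that a summit of each replicate lie within 100 bp, 308 members (63.9%) were found in both, against 54.5% of single-gene promoter peaks and 55.5% of all peaks.

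Most summits stood in the space between the opposed start sites, a layout that the rule largely sets. Its window reaches 1000 bp upstream of a start and only 200 bp downstream. In 429 members (89.0%) the summit lay between head-to-head start sites, in 51 it lay just past one of them, and in 2 the nearest opposed start sites overlapped. The opposed start sites were a median of 600.0 bp apart (quartiles 334.5 and 896.8), with a range of -27 to 1771 bp, where a negative value means overlapping starts. The distance from the summit to the nearer start site had a median of 130.5 bp (quartiles 61.0 and 225.8), and that to the farther one a median of 449.0 bp. In single-gene promoter peaks the median distance to the start site was 212.5 bp. A summit with start sites on both sides has a shorter way to the nearer one by layout alone, so this difference is a description. In 193 members (40.0%) the nearer start site was within 100 bp, and in 84 (17.4%) both were within 200 bp. The nearer gene was on the plus strand in 252 members and on the minus strand in 229, and 1 summit was equally far from both.

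Between head-to-head start sites the summits were spread over the whole space, with the highest count in the middle, which the rule in part sets. With start sites over 1000 bp apart, the limit of 1000 bp upstream of each start shut out positions near both ends. The share of the middle count that this explains was not tested. Counting from the minus-strand to the plus-strand start site in 5 equal steps, 71, 90, 107, 86 and 75 of the 429 summits fell in each step. The middle step held 24.9% (interval 20.9 to 29.3%), against 16.6% (interval 13.2 to 20.4%) and 17.5% (interval 14.0 to 21.4%) in the outermost steps. The median signals of the 5 steps, in the same order, were 150.0, 161.6, 174.0, 173.2 and 156.8. With start sites less than 250 bp apart, 63.9% of 61 members were found in both replicates, with a median signal of 159.2. The shares were 69.1% of 136 members for 250 to 500 bp, 65.0% of 203 for 500 to 1000 bp and 62.2% of 82 for larger distances, with medians of 169.8, 155.8 and 161.7. The intervals of these shares overlapped, and signal did not follow the distance between the genes in one direction.

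**Figure D2:**
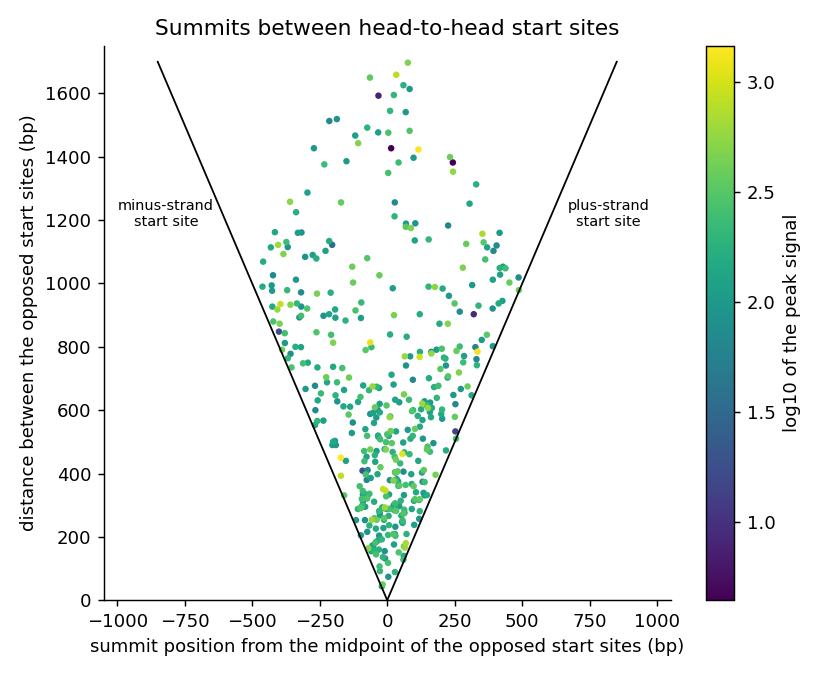
Each point is 1 of the 429 divergent promoter summits between head-to-head start sites; the x axis gives its position in bp from the midpoint of the opposed start sites, the y axis the distance in bp between them, the black lines the start sites themselves, and the colour the log10 of the peak signal. The summits fill the wedge between the lines, and the empty upper corners follow from the rule's limit of 1000 bp upstream of each start.

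By annotation, 354 member summits (73.4%, interval 69.3 to 77.3%) lay between genes, 41 (8.51%) in an annotated 5′ UTR exon, 37 (7.68%) in an intron, 32 (6.64%) in a non-coding gene and 16 (3.32%) in a coding exon. In single-gene promoter peaks 61.8% lay between genes and 21.1% in introns. A start of a gene annotated as ncRNA lay within 200 bp of 57 member summits (11.8%, interval 9.08 to 15.0%) and of 7.83% of single-gene promoter summits. Starts of tRNA genes lay within 200 bp of 4 member summits (0.830%) and of 1.77% of single-gene promoter summits. Repeated sequence was rare: in 459 members (95.2%) no 36-base stretch of the summit window occurred again in the genome. This share was not set beside one for other peaks. In 6 members (1.24%) the stretches that occurred again were at least as many as those that did not. Peaks of repeated windows are uncertain in place, as with ugt-24/C49A9.6 (signal 120.0), where 90.9% of the stretches occurred again.

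Divergent spaces held summits more often than other gene spaces of the same length. Among 1954 adjacent head-to-head pairs on the 4 chromosomes, with start sites up to 2000 bp apart, 466 (23.8%, interval 22.0 to 25.8%) had a summit between them. The share was 13.4% for pairs up to 250 bp apart, and 27.7%, 25.3% and 24.8% in the longer classes (up to 500, 1000 and 2000 bp). In spaces between gene bodies of over 250 and up to 500 bp, a summit was present in 27.8% of divergent spaces (112 of 403, interval 23.5 to 32.4%), in 13.6% of tandem spaces, whose flanking genes run the same way (142 of 1045, interval 11.6 to 15.8%), and in 5.60% of convergent spaces, where 2 gene ends meet (20 of 357, interval 3.46 to 8.52%). For spaces of over 500 and up to 1000 bp the shares were 25.2%, 13.5% and 4.26%, and for those over 1000 and up to 2000 bp 25.1%, 18.3% and 6.72%. A divergent space holds 2 gene starts, a tandem space 1 and a convergent space 0, and these shares are per space and not per start. The differences were not tested.

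**Figure D3:**
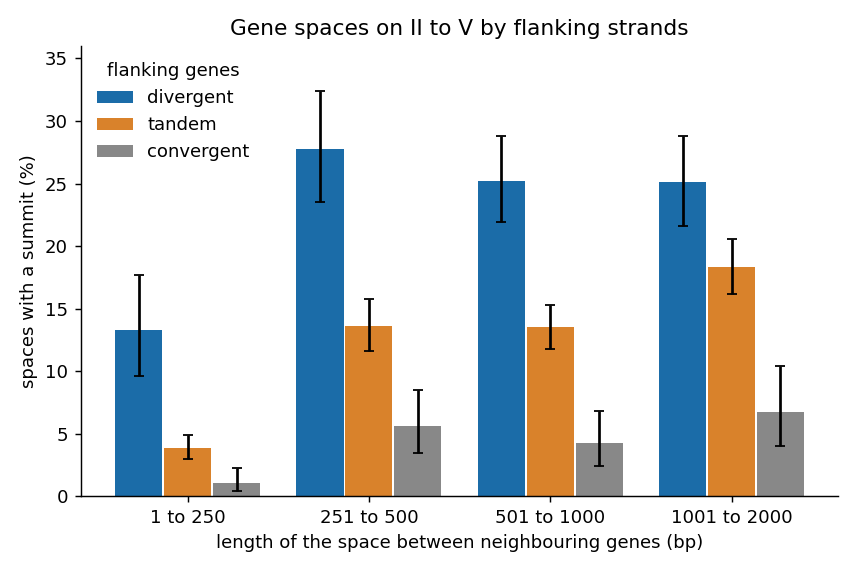
Share of spaces between neighbouring protein-coding genes on II to V that hold a summit (y axis, %), by the length of the space in bp (x axis) and by whether the flanking genes are divergent, tandem or convergent; error bars are 95% exact binomial intervals. Divergent spaces have the tallest bar in each of the 4 length classes, from 13.3% to 27.8%.

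Some pairs had a summit near each start. Of the 444 pairs, 32 had 2 member summits and 3 had 3. In 19 of the 32 each summit was nearer to a different gene, and in 8 of those both summits were found in both replicates. The next examples were chosen after their values were seen. Between ugtp-1, a UDP-galactose transporter gene, and sma-2, which encodes a Smad protein of BMP signalling, a summit 2 bp from the sma-2 start had a signal of 409.8 (replicate 1 247.9, replicate 2 166.2). A second, 119 bp from the ugtp-1 start, had 214.6 (127.9 and 87.1). Between ecps-1 and atx-2, the worm ataxin-2, the summit 50 bp from atx-2 had 331.9 and the one 211 bp from ecps-1 had 257.1. Between the chemoreceptor gene srj-49 and the glucuronosyltransferase gene ugt-53, the summits had nearly equal signals of 387.1 and 380.9, 375 bp from srj-49 and 49 bp from ugt-53. The other gene starts in these pairs lay 627 to 977 bp away.

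Chromosome III carried members most densely, at 9.21 per Mb (127 members), followed by V with 7.55 (158), II with 6.87 (105) and IV with 5.26 (92). Members made up 11.9% of the peaks on III (interval 10 to 14.0%), 11.2% on V, 8.99% on II and 8.59% on IV (interval 6.98 to 10.4%), and the intervals of III and IV overlapped. The share found in both replicates was highest on IV (72.8%, 67 of 92) and lowest on II (61.9%, 65 of 105). The median signals ran from 151.2 on II to 182.9 on IV. These differences between chromosomes were not tested.

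The strongest member stood between H12C20.7 and nhr-68 on chrV:11572824-11573331, with a signal of 1466.5, 816.4 in replicate 1 and 644.2 in replicate 2. It was rank 3 of the whole list, and its summit was 53 bp from H12C20.7 and 397 bp from nhr-68, a nuclear hormone receptor known from the control of propionate breakdown. The next, with 1382.3 (741.7 and 645.9), stood between nhl-2, a TRIM-NHL protein that works with small RNAs, and tag-340 on chrIII:4899692-4900103. It was 827 bp and 596 bp from these starts, and its summit lay in an annotated ncRNA gene. The third, with 1268.3 (749.4 and 510.9), lay 58 bp from tasp-1, a taspase-like protease gene, and 727 bp from K01G5.10 on chrIII:10759092-10759443.

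Of the 12 strongest members found in both replicates, 4 stood at cytosolic ribosomal protein genes. These were rpl-15/K11H12.8 on chrIV:654782-655055 (signal 1171.8, replicate 1 682.4, replicate 2 498.0), rpl-20/Y17G9B.5 on chrIV:4749938-4750211 (1136.8, 601.7 and 535.8), ifet-1/rps-1 (943.2, 544.0 and 400.3) and rpl-12/lin-54 (814.3, 446.6 and 364.4). ifet-1 encodes a translational repressor that binds eIF4E, and lin-54 the DNA-binding subunit of the DREAM complex. The next was drr-2/set-16 (853.9, 460.7 and 397.2), where drr-2 encodes an eIF4H-like protein and set-16 a histone H3 lysine methyltransferase, followed by iff-2/F54C9.14 (838.9, 473.2 and 371.7), where iff-2 encodes eIF5A. At F44E5.4/F44E5.5, a pair of near-identical HSP70-family genes, the signal was 823.5 (435.1 and 390.7). The summit lay 160 bp and 191 bp from their starts, and no 36-base stretch of its window occurred again. The remaining peaks of the 12 were mif-4/ipla-6 (777.6, 413.1 and 351.4) and C42D4.13/srlf-7 (702.3, 402.9 and 299.6). mif-4 encodes a relative of macrophage migration inhibitory factor, and ipla-6 a phospholipase.

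Gene groups were formed by gene name, with earlier results of these data known, so their shares are descriptions with no test. Of the 14364 protein-coding genes on the 4 chromosomes, 917 (6.38%) lay at a divergent promoter peak. Of the 4495 whose window met that of a gene on the other strand, the only ones that could hold such a peak, the share was 20.4% (interval 19.2 to 21.6%).

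Cytosolic ribosomal protein genes stood highest of the 17 groups. Their share was also high over peaks of any kind, which stood at 38 of the 54 genes (70.4%), against 18.4% of all protein-coding genes. Of 54 such genes, 26 (48.1%, interval 34.3 to 62.2%) lay at a divergent promoter peak, and of the 35 with an opposed window, 74.3% did (interval 56.7 to 87.5%). Their 25 peaks had a median signal of 195.9, with a range of 27.6 to 1171.8, against 162.9 over all members, and 19 were found in both replicates. Besides those named above, ska-3/rps-12 had 626.6 (362.0 and 268.8) and rpl-7A/set-21 had 597.3 (323.7 and 273.3). The weakest peaks not overlapping a stronger one were rps-13/nfx-1 (79.4, found in neither) and rps-9/lsm-1 (93.0, replicate 2 alone), so the group ran from the top of the members to their lower end. The ribosomal protein gene was the nearer one in 10 of the 25. In 2 peaks, rpl-39/rps-30 (256.3) and rps-14/rpl-36 (212.2), ribosomal protein genes stood on both sides.

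Other groups of RNA and protein production followed. A peak of any kind stood at 48.4% of splicing genes and 37.8% of chaperone genes, against 18.4% of all protein-coding genes. The shares were 25.5% for the mitochondrial ribosome and 31.8% for translation factors and tRNA synthetases. Splicing genes had 11 of 20 opposed genes at a member (55.0%, interval 31.5 to 76.9%), led by prp-19/K10D2.5 (389.1, 251.0 and 137.9) and rsp-2/rsp-1 (337.8, 186.8 and 151.1), a pair of SR splicing factor genes. Chaperone genes had 13 of 29 (44.8%, interval 26.4 to 64.3%). The strongest with a name of this group were cct-8/Y55F3AR.2 (623.7, 334.2 and 298.7), a chaperonin subunit, and C47E8.4/hsp-90 (602.8, 323.1 and 277.4), and the HSP70-family pair F44E5.4/F44E5.5 (823.5) is not in the group because its genes carry no such name. Their 14 peaks had a median signal of 305.8, and the chaperone gene was the nearer one in 2 of them. Genes of the mitochondrial ribosome had 10 of 25 (40.0%, interval 21.1 to 61.3%), with a strongest signal of 314.8 at F29B9.11/jmjd-1.2, which also held mrps-21, and 261.6 at Y39A1A.22/mrpl-12. Translation factors and tRNA synthetases had 9 of 23 (39.1%, interval 19.7 to 61.5%). There ctf-4/eef-1G had 680.0 (369.5 and 303.6), 21 bp from the start of the elongation factor gene, and kars-1/kat-1, at a lysyl-tRNA synthetase gene and a thiolase gene, had 395.8 (245.3 and 151.3).

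Smaller groups gave wide intervals. The proteasome had 6 of 17 opposed genes at a member, the vacuolar ATPase 3 of 8, the respiratory chain 4 of 12, ubiquitin conjugation 2 of 6 and homeobox genes 3 of 8. The strongest proteasome peaks stood at hsp-110/rpn-3 (398.9, 216.9 in replicate 1 and 179.5 in replicate 2), between a heat shock protein gene and a regulatory particle gene, and at pbs-1/K08D12.3 (163.8). Those of the vacuolar ATPase, the proton pump of acidic compartments, stood at sqv-3/vha-1 (442.1, 279.0 and 160.8) and C17H12.2/vha-8 (340.8). The strongest peaks with a name of the respiratory chain group were Y71H2AM.20/cox-6B (387.1) and atp-5/lmtr-3 (304.0). The group by name leaves out dlc-1/nduf-2.2 (496.7) and jmjd-4/mev-1 (340.5), at genes of respiratory complexes, which were noticed after their values were seen. Ubiquitin conjugation was led by aka-1/ubc-6 (456.8) and ubq-2/frg-1 (197.0). Among homeobox genes, srh-70/ceh-99 had 614.0 (343.8 and 263.1). Its summit lay 965 bp from ceh-99, 157 bp from srh-70 and within 200 bp of a snoRNA gene start. At malt-1/ceh-38, which holds a ONECUT factor gene, the signal was 362.9 (205.1 and 160.1). Of the stretches in the window of aka-1/ubc-6, 42.4% occurred again in the genome.

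Most detoxification and nuclear hormone receptor genes with a peak did not lie at a divergent promoter peak, which also held over all protein-coding genes. Of all protein-coding genes, 2641 had a peak of any kind and 917 lay at a divergent promoter peak. The counts were 66 and 15 for detoxification genes and 70 and 7 for nuclear hormone receptor genes. Of the 163 detoxification genes, 40.5% had a peak in their own window of any kind, against 18.4% of all genes, and 15 (9.20%) lay at a divergent promoter peak, which was 34.9% of the 43 with an opposed window (interval 21.0 to 50.9%). The enzyme gene was the nearer one in 11 of the 13 peaks that also had a gene outside the group. Their median signal was 131.9, and 8 of 17 peaks were found in both replicates. Of the 223 nuclear hormone receptor genes, 31.4% had a peak of any kind but 7 (3.14%) lay at a divergent promoter peak, 18.4% of the 38 with an opposed window (interval 7.74 to 34.3%). nhr-68 led them, and dnj-19/nhr-47 had 435.6 (225.2 and 210.6), 19 bp from nhr-47.

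Chemoreceptor genes were at the low end, with 17 of 239 opposed genes at a member (7.11%, interval 4.20 to 11.1%). Collagens had 4 of 33 (12.1%, interval 3.40 to 28.2%) and histones 8 of 62 (12.9%, interval 5.74 to 23.9%). F-box genes had 16 of 98 (16.3%, interval 9.63 to 25.2%). The intervals of collagens, histones and F-box genes covered the 20.4% of all protein-coding genes. A peak of any kind stood at 2.84% of chemoreceptor genes, 10.2% of collagen genes, 16.7% of histone genes and 11.8% of F-box genes. Over all protein-coding genes it was 18.4%. The 17 chemoreceptor genes shared every one of their 19 peaks with a gene of another family, led by srh-70/ceh-99 (614.0). That summit also had a snoRNA gene start within 200 bp. The histone peaks his-61/his-62 (259.1) and his-6/his-5 (192.3) stood between genes of a family with near-identical copies, and 27.3% of the stretches of the second window occurred again in the genome. The collagen peaks stood at col-38/rpl-5 (168.5), qns-1/col-124 (155.9), col-151/ugt-1 (132.9) and col-71/Y49F6B.2 (128.6), with the collagen gene the farther one in all 4. F-box peaks were led by fbxa-108/dgat-2 (586.8) and fbxb-85/hex-3 (294.9). Neuropeptide genes had 3 of 11, at ins-7/ZK1251.3 (438.7) and nlp-34/nlp-31 (81.4, found in neither replicate). The summit at ins-7/ZK1251.3 lay 140 bp past the ins-7 start, in an intron, with an snRNA gene start within 200 bp.

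**Figure D4:**
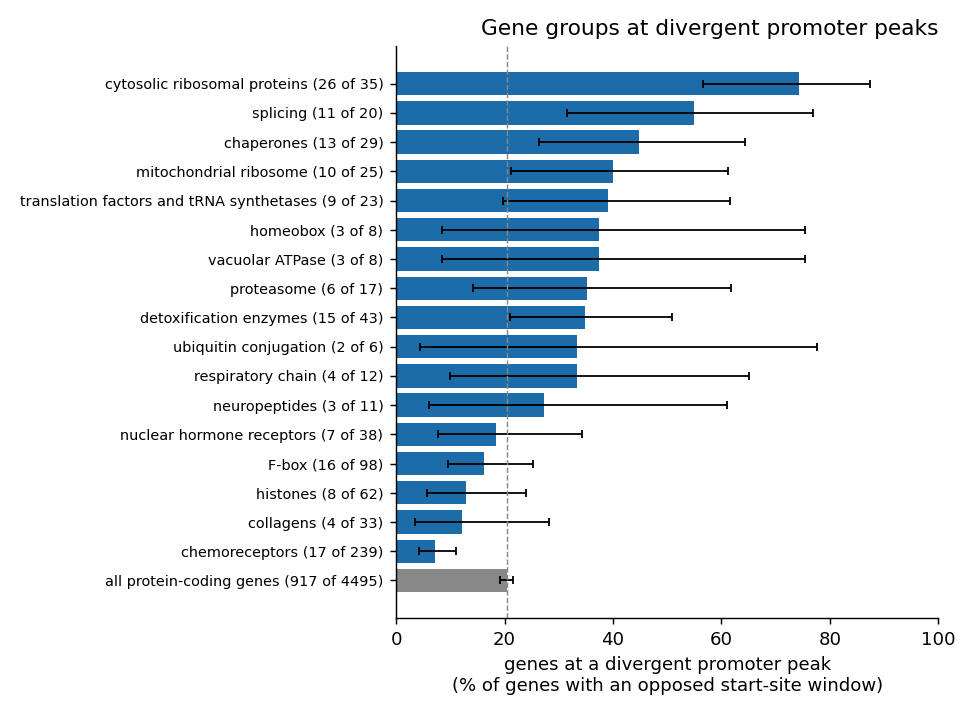
Share of the genes of each named group that lie at a divergent promoter peak, in % of the genes whose window meets that of a gene on the other strand (x axis), with the counts beside each name and 95% exact binomial intervals; the grey bar and the dashed line give all protein-coding genes on II to V. Cytosolic ribosomal proteins reach 74.3% and chemoreceptors 7.11%, around the 20.4% of all genes.

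The sequence at divergent promoter summits was richer in G and C than that of the 3 sets it was set beside, and it held the GATA word less often than single-gene promoter summits and more often than the flanks and the head-to-head pairs without a peak. The median GC content of the summit windows was 44.6% in divergent promoter peaks, 40.6% in single-gene promoter peaks, 35.6% in windows 350 bp to either side of the members and 32.7% at the midpoints of 1450 head-to-head pairs without a peak. The GATA word was present in 99 members (20.5%, interval 17.0 to 24.4%) and in 35.1% of single-gene promoter peaks (interval 33.0 to 37.2%). It was present in 8.20% of the flanks, 8.55% of the pairs without a peak and 9.34% of all windows of that length along the 4 chromosomes. Members with the word had a median GC content of 36.6% and those without it 46.5%. The part of base composition in this difference was not tested.

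Among the gene groups, the interval of the GATA share lay below the 20.5% of all members for cytosolic ribosomal proteins alone. The word stood in 0 of 25 peaks there, which allows a share of up to 13.7% (upper end of the exact interval). It stood in 0 of 10 at mitochondrial ribosome genes and 0 of 10 at splicing genes (up to 30.8% each), 1 of 14 at chaperone genes (interval 0.181 to 33.9%), 1 of 6 at proteasome genes and 2 of 10 at translation factor and tRNA synthetase genes. It stood in 6 of 14 peaks at F-box genes (interval 17.7 to 71.1%), 7 of 19 at chemoreceptor genes (16.3 to 61.6%), 6 of 17 at detoxification genes (14.2 to 61.7%) and 3 of 10 at nuclear hormone receptor genes (6.67 to 65.2%). The intervals of the 7 other groups, with 2 to 5 peaks each, also covered 20.5%. Of the members in the middle of 3 equal parts of each chromosome 15.0% had the word (32 of 213, interval 10.5 to 20.5%), against 24.9% in the outer parts (67 of 269, interval 19.9 to 30.5%). Single-gene promoter peaks had 34.7% and 35.5% there. The members with and without the word were found in both replicates about equally often, at 65.7% and 65.5%.

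The other words followed their own patterns. GAGAGA was in 83 members (17.2%, interval 14.0 to 20.9%), against 19.5% of single-gene promoter peaks and 5.91% of the flanks, and CACGTG in 18 (3.73%, interval 2.23 to 5.84%), against 7.49% and 1.66%. The E2F word TTTCGCG was in 21 members (4.36%, interval 2.72 to 6.58%), against 2.81% of single-gene promoter peaks, 1.98% of all peaks and 1.45% of the flanks. TGACTCA was in 12 (2.49%, against 1.82% of single-gene promoter peaks), GTCACGT in 7 (1.45%, against 1.87%) and TTGTATA in 5 (1.04%, against 1.18%). The DM-domain core, at 1.87%, stood beside 2.36% in single-gene promoter peaks, 1.87% in all peaks, 1.97% in the flanks, 1.79% in pairs without a peak and 1.68% in all windows. The interval of the members covered each of these shares. Across all windows of that length along the 4 chromosomes, CACGTG was in 1.67%, GAGAGA in 5.18%, TGACTCA in 0.874%, TTTCGCG in 1.16%, GTCACGT in 0.477% and TTGTATA in 1.66%.

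**Figure D5:**
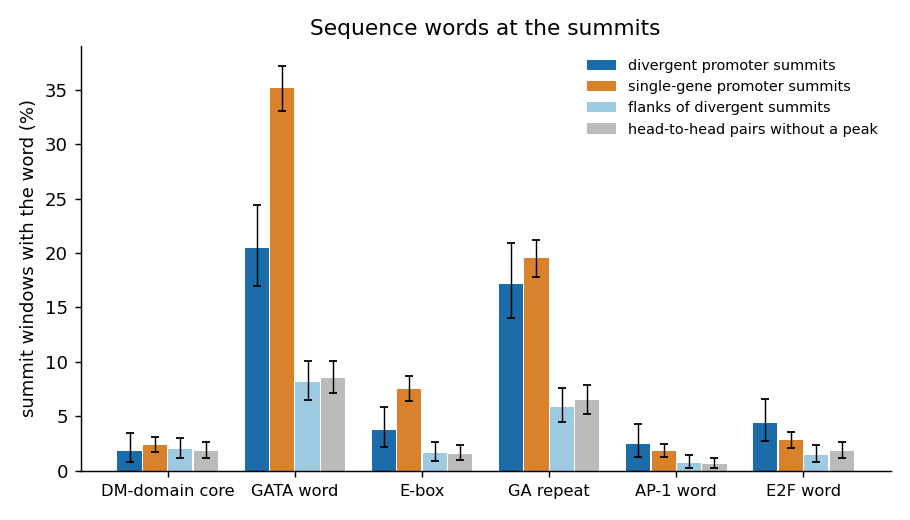
Share of summit-length windows (y axis, %) that hold each of 6 words on either strand, at the summits of divergent promoter peaks and of single-gene promoter peaks, in the flanks of the divergent summits and at head-to-head pairs without a peak; error bars are 95% exact binomial intervals. The GATA word is at 20.5% in divergent and 35.1% in single-gene promoter summits, and the DM-domain core is near 2% in all 4 sets.

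The 3 members nearest inside the edge of the rule had signals of 75.4 to 137.0, and the 3 peaks nearest outside it 110.8 to 480.1. The members closest to the edge were wht-3/har-1 (signal 137.0, 997 bp upstream of har-1), F22D3.4/flcn-1 (99.2, 996 bp upstream of F22D3.4) and a second summit of rsp-2/rsp-1 (75.4, 996 bp upstream of rsp-2). The peaks closest outside it were K07H8.7/vit-6 (480.1, 1004 bp upstream of K07H8.7), where vit-6 encodes a yolk protein, ceeh-2/ttll-15 (110.8, 207 bp inside ceeh-2) and Y57A10A.13/Y57A10A.14 (416.2, 1011 bp upstream of Y57A10A.13). A few members had 3 genes in the window, 31 in all. The strongest of these were cux-7/C07H6.2 with lig-4 (505.1), W03C9.5/mex-1 with rab-7 (471.8) and R186.8/lin-46 with R186.3 (455.5). The strongest members found in neither thresholded replicate list were mrpl-45/Y119D3B.12 (107.1), cap-1/D2024.4 (100.5) and Y37E11AM.2/smgl-2 (100.4).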

How the data were processed

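ChIP-seq of 2 biological replicates of 1 group gave the peak lists used here. The authors deposited, for each replicate and for both together, thresholded lists that hold a peak score, a peak signal and a summit offset in bp from the peak's start, and ranked lists, on assembly ce11 per the labels. The authors' score was carried along and not used in any result; the scale of the deposited signal differs between lists, with its formula, the aligner and the peak caller not given in the sources used here. No other per-sample columns were found (0). The conservative list and the lists of single replicates served as alternatives; ranked lists of both replicates together were not used.

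Members were found with Python 3.11.15 and numpy 2.4.6 from all annotated transcript starts of protein-coding genes (Ensembl release 115); figures used matplotlib 3.10.9. The nearest start site on each strand that holds the summit in its window gave the gene pair. Sequence came from the RefSeq copy of WBcel235, coordinates are 1-based, and words were counted on both strands. Exact binomial (Clopper-Pearson) intervals at 95% (scipy 1.17.1) cover counting only, and with 1 group no test across samples exists. The functions were checked on simulated data. Gene groups were read from gene names, so genes of the same function with other names are not in them; chemoreceptors were limited to the named sr families of receptors. The members, lists and words were chosen with earlier results of these data known. Named genes are those at the 12 strongest members found in both replicates, the 2 strongest members of each group, the 5 strongest with ACAATGT, 3 on each side of the rule's edge, the 3 strongest with most genes and the 3 strongest found in neither replicate, with others said to be chosen after their values were seen. Further collagen, ribosomal protein and repeated-window examples were also chosen after their values were seen. Each summit of a peak interval counts as a peak.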

Additional observations from a re-analysis of the deposited data

How the results depend on the processing

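Of 46 alternative values, 36 stayed within the interval of the reported value (for counts, within 1.5 times), and 10 moved. With a window from 500 bp upstream to 100 bp downstream, 262 peaks were members, against 482, and the median distance to the nearer start site was 110.0 bp, against 130.5, as the narrower window requires. Among the peaks at or above the median signal of the whole list, 280 were members, 93.6% were found in both replicates and their median signal was 247.6. With the ranked list of each replicate, 96.5% were found in both. In windows of 100 bp to either side of the summit 3.53% of members held the DM-domain core, against 1.87% with 50 bp to either side. The longer windows held it in 4.48% of single-gene promoter peaks, 4.17% of all peaks, 3.22% of the flanks and 3.42% of all windows of that length. Without replicate 1 and without replicate 2 the number of members ran from 333 to 470, the median signal from 92.6 to 102.6 on the lists' own scales, the share of head-to-head pairs with a peak from 17.4 to 24.3%, the median distance from 129.0 to 133.0 bp and the share with the DM-domain core from 1.80 to 2.34%. The requirement of a summit within 100 bp, chosen after seeing the data, gave 63.9%, against 65.6% by overlap. No paired analysis was possible because the series has 1 group. The depth in reads is unknown, so the lower number of peaks in replicate 2 cannot be set against it.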
